A study of Mus musculus with 9 samples.

Results

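Hspa8, Hsph1, Dnaja1 and St13, genes of the cytosolic HSP70 chaperone machine, were described in alveolar bone of mice whose tooth extraction socket healed with or without an allograft. The 4 genes were taken by name from a table of 98 genes, which the authors had selected on a difference between the same 2 groups of libraries. The higher level of these genes in one group is therefore what chose them, and it is described here without a test. The comparison asked how the tissue RNA at 2 weeks differed when the socket held a graft. Spon. Healing (n = 4) was an extraction socket left to heal without graft, and Allograft (n = 5) was the same defect filled with allograft particles and given saline, once or repeatedly (the labels do not say which). All animals were male C57BL mice, 8 weeks old at the start, sacrificed 2 weeks after the procedure. The graft was ground, freeze-dried femur and tibia of mice of the same C57BL/6 strain, prepared so as to carry neither live cells nor protein. It thus models a processed particulate graft rather than a graft across strains. Whole maxillary bone was pulverized, and none of 45 markers of bone, immune, endothelial, epithelial, muscle, tooth and erythroid cells was among the 98 genes, so the cell types behind the counts were not checked here.

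HSP70 proteins hold exposed stretches of unfolded protein and release them in a cycle driven by ATP. J-domain proteins bring clients and start ATP hydrolysis, nucleotide exchange factors restart the cycle by letting ADP go, and other partners hold the complex in its client-bound state. Hspa8 encodes HSC70, the constitutive cytosolic HSP70 of nearly all cells. Hsph1 encodes HSP105, a member of the HSP110 family that acts as a nucleotide exchange factor and is itself induced by heat shock. Dnaja1 encodes a J-domain cochaperone of the HSP40 family, and St13 encodes Hip, which binds HSC70 in its ADP state and slows the release of ADP.

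The 4 genes lie on 4 different chromosomes of GRCm38. Hspa8 (ENSMUSG00000015656) is at chr9:40800984-40810087 on the plus strand, and the RefSeq mRNA looked at here has 9 exons. Hsph1 (ENSMUSG00000029657) is at chr5:149614287-149636376 on the minus strand, with 18 exons. Dnaja1 (ENSMUSG00000028410) is at chr4:40722150-40737149 on the plus strand, with 9 exons, and overlaps Smu1 and Gm6297 on the other strand (the counting used strand). St13 (ENSMUSG00000022403) is at chr15:81363669-81400077 on the minus strand, with 12 exons.

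Heat shock factors bind inverted repeats of the triplet GAA, so the promoters were searched for the 2 spacings of such a pair, GAANNTTC and TTCNNGAA. Each of these motifs reads the same on both strands. The RefSeq promoter windows of GRCm38.p6, each 300 bases long around a start site, covered Hsph1 and Dnaja1. The set used here held no window for Hspa8 or St13, so whether these 2 members carry such a pair was not analysed here. Hsph1 held 3 such pairs, of which 2 share a GAA, and the upstream Dnaja1 start held 1. The stretches that carry them are shown because both members with a window held a heat shock motif. The paired triplets are in capitals. The Hsph1 upstream stretch is chr5:149636337-149636486 on the minus strand, the Hsph1 downstream stretch is chr5:149636287-149636306 on the minus strand, and the Dnaja1 stretch is chr4:40722318-40722467 on the plus strand.
Hsph1 upstream: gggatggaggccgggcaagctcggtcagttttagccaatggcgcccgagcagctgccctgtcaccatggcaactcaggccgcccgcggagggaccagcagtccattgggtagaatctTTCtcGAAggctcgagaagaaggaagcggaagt
Hsph1 downstream: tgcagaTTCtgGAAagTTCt
Dnaja1 upstream: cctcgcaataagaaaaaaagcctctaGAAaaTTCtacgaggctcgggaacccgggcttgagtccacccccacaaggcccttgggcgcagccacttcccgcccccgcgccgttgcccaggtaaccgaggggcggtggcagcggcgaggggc

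In Hsph1 the upstream pair began 33 bases before the start site at 149636336, and the downstream run of triplets began 36 bases after it. In Dnaja1 the pair began 124 bases before the start site at 40722468, and the windows of the other 2 Dnaja1 starts held none. Either motif was found in 15.1% of all 32851 windows and both motifs in 1.32%. A match of letters is a description and shows no binding. Of the 98 genes of the table, 66 had a window, and 11 of these 66 genes held either motif, which is 16.7%, beside 17.0% of all 27025 genes with a window. Cep57, whose level was lower in Allograft, was the other listed gene with both motifs, besides Hsph1, and it was singled out after this was seen.

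Hspa8 was the member with the most counts, and its lowest Allograft value exceeded its highest Spon. Healing value by 104 normalized counts. Its normalized counts were 1345, 1289, 1128 and 1185 in Spon. Healing replicates 1 to 4, and 1994, 1991, 1449, 1528 and 1566 in Allograft replicates 1 to 5. Within Allograft, replicates 1 and 2 lay above the other 3 libraries, whereas the Spon. Healing libraries lay close together. The group means were 1237 ± 98.3 normalized counts (SD, n = 4) and 1706 ± 265 (SD, n = 5), a 1.38-fold higher level in Allograft. The raw counts behind these values ran from 684 to 3365 per library, for which counting error alone gives a coefficient of variation of 3.26% in Spon. Healing and 2.34% in Allograft. The measured coefficients were 7.95% and 15.6%, so the libraries differed by more than counting error in both groups, and most in Allograft.

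Hsph1, the nucleotide exchange factor, had the largest fold difference of the members between the groups. Its normalized counts were 135, 127, 148 and 132 in the Spon. Healing libraries, and 343, 373, 247, 258 and 286 in the Allograft libraries. The lowest Allograft library was 98.9 normalized counts above the highest Spon. Healing library. Replicates 1 and 2 were again the 2 highest of Allograft, as for Hspa8. The means were 136 ± 9.08 (SD, n = 4) and 301 ± 54.5 (SD, n = 5), a 2.22-fold higher level in Allograft. In Spon. Healing the coefficient of variation of 6.69% was below the 9.73% that counting error gives for 76 to 183 raw counts, so no spread between those libraries was detectable at this depth.

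Dnaja1, the J-domain cochaperone, had 856, 642, 607 and 596 normalized counts in Spon. Healing and 989, 912, 975, 858 and 1073 in Allograft. Spon. Healing replicate 1 lay well above the other 3 libraries of its group and almost reached Allograft replicate 4. The gap between these libraries was 2.05 normalized counts, which is within counting error (coefficient of variation 4.45% in Spon. Healing and 3.15% in Allograft). The means were 675 ± 122 (SD, n = 4) and 961 ± 81.4 (SD, n = 5), 1.42-fold higher in Allograft. Unlike Hspa8 and Hsph1, Dnaja1 was not highest in Allograft replicates 1 and 2 but in replicate 5.

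St13, which encodes Hip, had 586, 746, 656 and 555 normalized counts in Spon. Healing and 793, 864, 829, 823 and 846 in Allograft. The 5 Allograft libraries were nearly level, with a coefficient of variation of 3.21% beside 3.40% from counting error, whereas the Spon. Healing libraries spread by 13.3% beside 4.60%. The means were 636 ± 84.8 (SD, n = 4) and 831 ± 26.7 (SD, n = 5), and the 1.31-fold higher level was the smallest difference of the 4 genes.

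**Figure D1:**
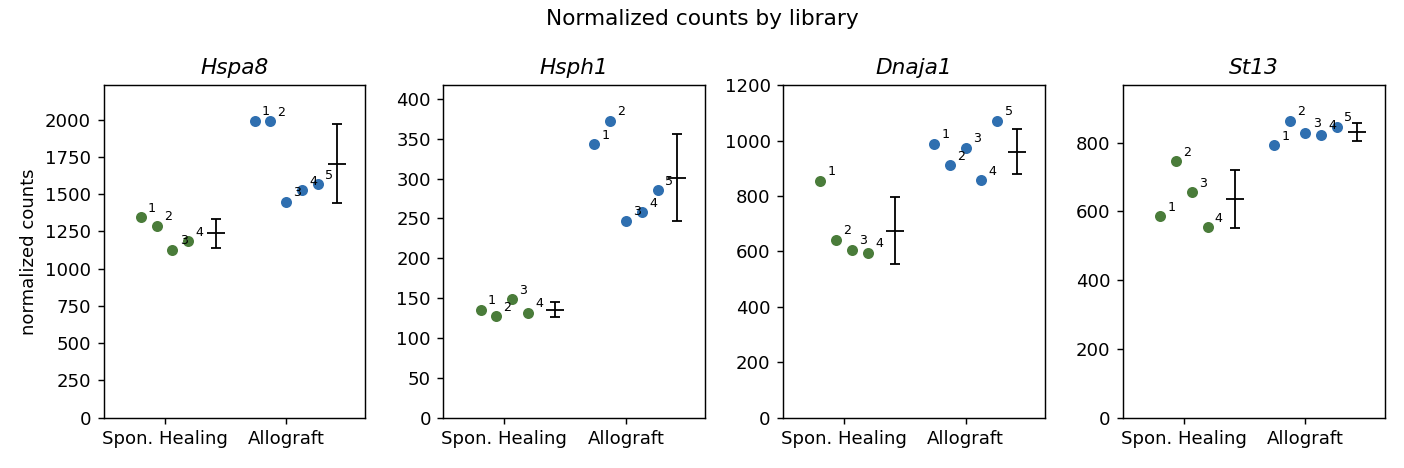
Normalized counts (linear axis from 0) of Hspa8, Hsph1, Dnaja1 and St13 in 4 Spon. Healing libraries (green) and 5 Allograft libraries (blue), numbered by replicate, with the mean and SD of each group in black. For Hsph1 the groups are widely separated (127 to 148 and 247 to 373), whereas for Dnaja1 Spon. Healing replicate 1 (856) almost meets Allograft replicate 4 (858).

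Fitted over the whole table with the authors' size factors, edgeR gave log2 fold changes, Allograft minus Spon. Healing, of 0.46 for Hspa8 (standard error 0.12), 1.15 for Hsph1 (standard error 0.19), 0.51 for Dnaja1 (standard error 0.12) and 0.38 for St13 (standard error 0.11). All 4 of 4 members were called higher in Allograft, beside 66% of the 97 genes tested, and in all 4 each Allograft library lay above each Spon. Healing library, beside 53.6% of the 97. Since every gene of the table was chosen for this difference, nothing is read from these counts. Among the 65 genes with a higher fitted level in Allograft, Hsph1 held place 6 by fold change, Dnaja1 place 40, Hspa8 place 49 and St13 place 58, and the median of the 65 was 0.56. Among these 65 genes Hsph1 thus lay above the median and the other 3 members below it. Over all 97 tested genes the median was 0.46, the value of Hspa8. Hsph1 also had the fewest counts of the members. The order comes from the contrast that chose the genes, so it is a description. With scaling factors (TMM) computed over the listed genes instead, the median of all tested genes shifted by -0.32, the fold changes became 0.83 for Hsph1, 0.19 for Dnaja1, 0.14 for Hspa8 and 0.07 for St13, and the calls went from 64 higher of 96 to 12 higher of 44. Of the 4 members, Hsph1 was then still called and Hspa8, Dnaja1 and St13 were not. In bulk tissue, more RNA per cell and more cells of a kind that holds much of this RNA cannot be told apart.

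The ratio of 2 genes in the same library needs no size factor, so each cochaperone was set against Hspa8. In each library the raw count of the cochaperone was divided by that of Hspa8 and given per 100 Hspa8 counts, with a 95% exact (Clopper-Pearson) interval that covers counting error only. These are ratios of 3′-end read counts, comparable between libraries but not a stoichiometry of mRNA or protein.

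The ratio of Hsph1 to Hspa8 separated the groups, with the Allograft libraries above. The ratios were 10.1, 9.86, 13.1 and 11.1 in Spon. Healing replicates 1 to 4, and 17.2, 18.7, 17.1, 16.9 and 18.2 in Allograft replicates 1 to 5. The Allograft libraries were nearly level although their Hspa8 and Hsph1 levels differed, and Spon. Healing replicate 3 was the highest of its group. The group means were 11.0 ± 1.50 (SD, n = 4) and 17.6 ± 0.813 (SD, n = 5), and the mean log2 ratio was 0.68 higher in Allograft (standard error 0.09), or 1.60-fold. The interval of Spon. Healing replicate 3 reached from 10.5 to 16.3 and so into those of Allograft replicates 1, 3, 4 and 5, the lowest of which began at 14.9, whereas the other 3 Spon. Healing intervals ended at 14.1 or below.

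For Dnaja1 the ratio to Hspa8 was nearly the same in both groups. The ratios were 63.6, 49.8, 53.8 and 50.3 per 100 in Spon. Healing and 49.6, 45.8, 67.2, 56.1 and 68.5 in Allograft. The groups overlapped throughout, and within Allograft replicates 1 and 2 lay lowest, where Hspa8 itself was highest. The means were 54.4 ± 6.40 (SD, n = 4) and 57.5 ± 10.2 (SD, n = 5), and the log2 ratio differed by 0.07 with a standard error of 0.15.

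For St13 the ratio to Hspa8 overlapped between the groups as well. The ratios were 43.6, 57.9, 58.1 and 46.8 per 100 in Spon. Healing and 39.8, 43.4, 57.2, 53.8 and 54.0 in Allograft. Replicates 1 and 2 were again the lowest of Allograft, and in Spon. Healing the libraries fell into a lower and a higher pair. The means were 51.6 ± 7.52 (SD, n = 4) and 49.6 ± 7.59 (SD, n = 5), with a log2 difference of -0.06 and a standard error of 0.15.

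**Figure D2:**
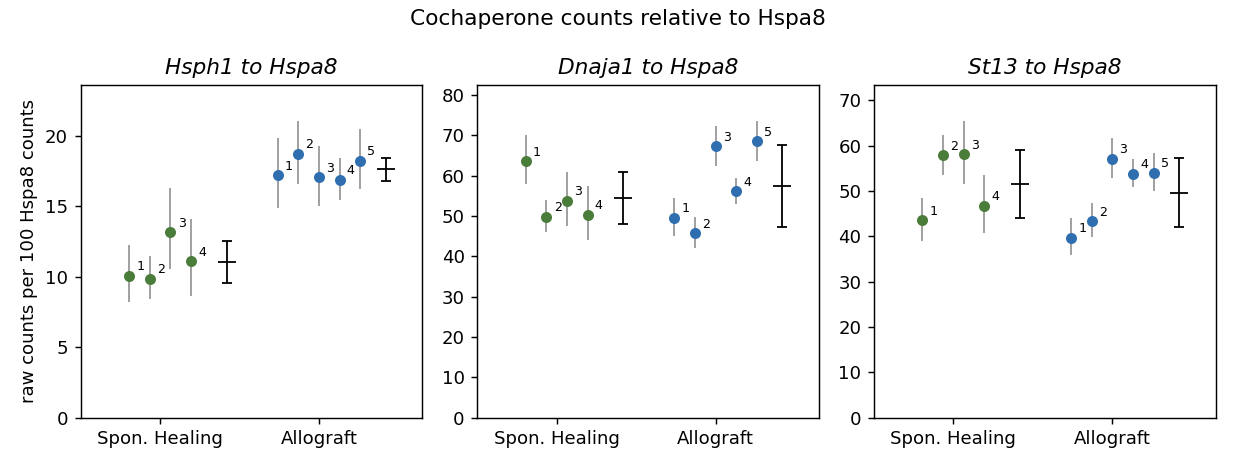
Raw counts of Hsph1, Dnaja1 and St13 per 100 Hspa8 counts (linear axis from 0) in each library, with 95% counting intervals in grey and the group mean and SD in black. Spon. Healing is green and Allograft blue. The Hsph1 ratios do not overlap between the groups (9.86 to 13.1 and 16.9 to 18.7), while the Dnaja1 and St13 ratios do.

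One of the 3 cochaperone ratios to Hspa8 thus separated the groups upward, beside 2.08% of the other 96 tested genes (2 genes, Hsph1 and Hspa5). The members and the table were chosen on the same contrast, so this is a description. Hsph1 was also higher relative to the other 2 cochaperones, with 20.5 ± 3.67 counts per 100 Dnaja1 counts for Spon. Healing (SD, n = 4) against 31.5 ± 6.35 for Allograft (SD, n = 5). Per 100 St13 counts it had 21.6 ± 3.09 (SD, n = 4) against 36.3 ± 6.48 (SD, n = 5). Neither of these ratios overlapped between the groups. Relative to Dnaja1, the highest Spon. Healing and lowest Allograft values were close, at 24.4 and 25.4. How many other listed genes separated the groups relative to Dnaja1 or St13 was not counted here, so nothing is read from this. Dnaja1 relative to St13 was 108 ± 26.8 (SD, n = 4) and 116 ± 10.5 (SD, n = 5) per 100 and overlapped. As a share of the counts of the 4 genes, Hsph1 took 4.53% to 5.84% (Spon. Healing) against 7.06% or more (Allograft), while the Hspa8 share overlapped, at 44.4% to 48.0% against 41.4% to 48.4%.

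How closely the members kept together among libraries of the same group was described next. The test behind the table favours genes with little spread within a group, so these SDs are a description too. The pooled within-group SD of the log2 ratio to Hspa8 was 0.134 for Hsph1, which is 1.13 times the 0.118 that counting error gives. It was 0.223 for Dnaja1 and 0.222 for St13, or 3.29 and 3.17 times counting error. Thus, with both groups pooled, the Hsph1 ratio varied within groups hardly more than counting allows, while the Dnaja1 and St13 ratios varied more.

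Library by library, Hspa8 and Hsph1 deviated together within Allograft. On the log2 scale, Hspa8 lay 0.24 above its group mean in both replicates 1 and 2, and Hsph1 lay 0.21 and 0.33 above. In Allograft replicates 3, 4 and 5 Hspa8 lay at -0.22, -0.14 and -0.11 and Hsph1 at -0.27, -0.21 and -0.06 relative to the group mean. St13 stayed between -0.07 and 0.06 in these 5 libraries. The signs were not particular to the pair, since Hspa5 lay at 0.06, 0.27, -0.10, -0.21 and -0.02 in Allograft replicates 1 to 5. Allograft replicates 1 and 2 also had the smallest size factors of their group, 0.653 and 0.877, beside 1.23, 2.20 and 1.18 in replicates 3, 4 and 5. Whether the size factors bear on these deviations was not tested. In Spon. Healing, replicate 3 had the lowest Hspa8 (-0.13) with the highest Hsph1 (0.13), but the Hsph1 spread there was below counting error, so whether the pair moved together could not be seen at this depth.

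**Figure D3:**
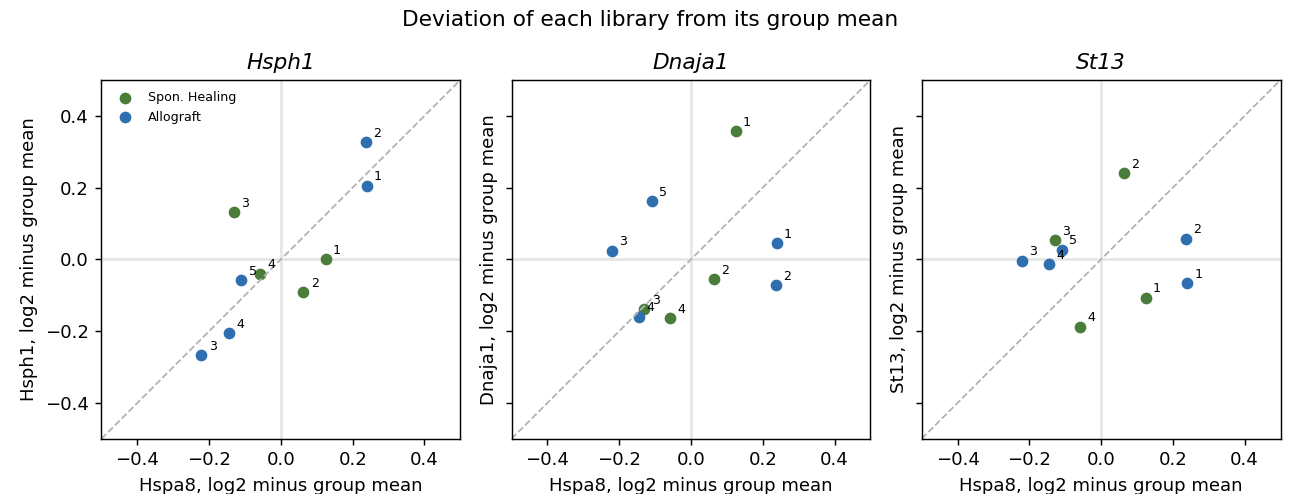
Log2 normalized count of each cochaperone minus its group mean (y axis) against the same for Hspa8 (x axis), 1 point per library numbered by replicate, Spon. Healing green and Allograft blue. The dashed line marks equal deviation. The Allograft points of Hsph1 lie along it (replicates 1 and 2 at 0.24 for Hspa8, replicate 3 at -0.22), and those of St13 stay between -0.07 and 0.06.

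Among 95 other listed genes averaging 10 counts or more, the gene whose log2 ratio to Hspa8 had the smallest pooled within-group SD over the 9 libraries was Hsph1 (0.134, with a median of 0.310 over the 95 genes). For Hsph1, Hspa8 held place 2 (0.134) after Golph3 (0.120), which encodes a Golgi phosphoprotein. With 1 library left out, Hsph1 held places 1 to 7 for Hspa8, with place 7 without Allograft replicate 2. In Allograft alone it held place 1 (SD 0.066), and in Spon. Healing alone place 29 (SD 0.190). Counting error gives 0.118 for this ratio over the 9 libraries and was not computed for Allograft alone. The SD of 0.066 is below that, so nothing is read from place 1 there. Dnaja1 and St13 were at places 27 and 25 for Hspa8. Counting error is part of every such SD and differs with the counts of a gene, so the order is a description.

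After Hsph1, the listed genes closest to Hspa8 were Golph3 (0.143), Tceal9 (0.143) and Ssr1 (0.147), which encodes a subunit of the translocon-associated protein complex of the endoplasmic reticulum (ER). Those closest to Hsph1, besides Hspa8, were Golph3, the small GTPase gene Arf4 (0.140) and Manf (0.142), which encodes a factor secreted under ER stress. For Dnaja1 they included Nudcd2 (0.132) and Sfr1 (0.142). For St13 they were the linker histone gene H1f0 (0.104), which was lower in Allograft, Pdia6, which encodes a disulfide isomerase of the ER (0.109), and Arf4 (0.127). Over the 9 libraries, Hspa8 and Hsph1 were thus the only pair of members among each other's closest genes. In Spon. Healing alone Hspa8 held place 28 for Hsph1, so this closeness was not seen there. For Dnaja1, Hspa8 held place 13 (0.223, with a median of 0.317). Dnaja1 and St13 held places no closer than 24 for each other.

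**Figure D4:**
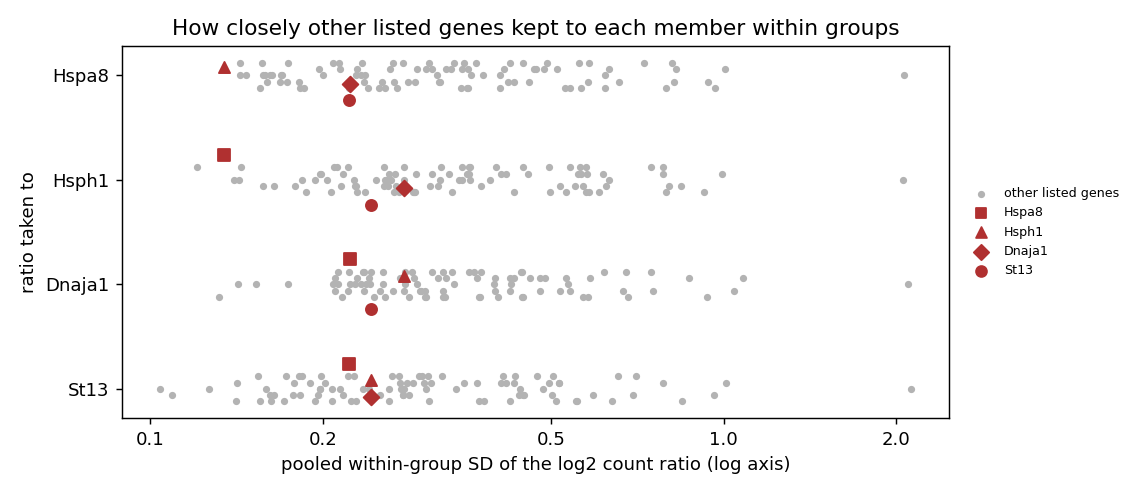
Pooled within-group SD of the log2 count ratio (log axis, smaller means that 2 genes kept closer together over the 9 libraries) of each member to 95 other listed genes. Grey points are genes outside the 4 members (their height within a row carries no meaning) and red symbols are the members. Hsph1 is the leftmost symbol in the Hspa8 row at 0.134, whereas Dnaja1 and St13 lie at about 0.22.

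Of 54 chaperone and heat shock genes outside the ER that were looked up by name, the 4 members were the ones in the table. They were 2 of 9 HSP70 and HSP110 genes, 1 of 13 cytosolic J-domain genes and 1 of 9 exchange factors and other HSP70 partners. None of the 7 genes looked up for HSP90 and its cochaperones was listed. The same held for 5 heat shock factor and small heat shock protein genes and for 11 chaperonin and mitochondrial HSP70 genes. These lists do not hold every gene of their families, so other genes among the 98 may belong to them. The heat-inducible Hspa1a, Hspa1b, Dnajb1 and Hspb1 were thus not listed, and their levels were not analysed here. Absence from 98 listed genes does not show that a gene was the same in both groups.

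The HSP70 of the ER, Hspa5 (BiP), was in the table and differed more between the groups than its cytosolic relative. Hspa8 counts per 100 Hspa5 counts were 94.8, 55.2, 56.6 and 60.9 in Spon. Healing and 53.9, 46.5, 43.8, 49.7 and 44.8 in Allograft. Each Allograft library lay below each Spon. Healing library, and Spon. Healing replicate 1 stood far above the rest. The closest values were 53.9 in Allograft replicate 1 and 55.2 in Spon. Healing replicate 2. Their 95% counting intervals overlapped (50.3 to 57.6 and 52.2 to 58.5), so this separation is within counting error. Hspa5 and Hsph1 were the 2 of 96 tested genes (2.08%) whose ratio to Hspa8 separated the groups upward. The means were 66.9 ± 18.8 (SD, n = 4) and 47.7 ± 4.09 (SD, n = 5), a log2 difference of -0.45 with a standard error of 0.17. Without Spon. Healing replicate 1 the difference was -0.27. Hsph1 differed by more than Hspa5 (fold changes of 1.15 and 0.89 on the log2 scale), so the order of these 3 chaperone genes was Hsph1, Hspa5, Hspa8, and the standard errors of Hsph1 and Hspa5 (0.19 and 0.15) are wide enough that these neighbours are not told apart.

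The counts of Hspa8 carry 1 further limit. The last 300 bases of its mRNA, the part read by 3′-end libraries, matched 7 annotated pseudogenes over at least 100 bases at 95% identity or more on the same strand, and none of the 7 was in the table. For Hsph1, Dnaja1 and St13 there was no such match. Reads that fit several places equally well get a low mapping quality and were skipped by the authors, so Hspa8 levels and the ratios to Hspa8 are uncertain in scale, and the part of these pseudogenes in the results was not tested.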

How the data were processed

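CEL-Seq2 libraries, which read the 3′ ends of polyadenylated RNA, were made by the authors from 2 ng of total RNA, 1 library per sample. The authors trimmed reads with cutadapt, aligned them to GRCm38 (Ensembl release 99 annotation) with TopHat and ran htseq-count with strand, skipping reads of mapping quality under 10. Whether molecular identifiers were collapsed is not given in the sources used here. The deposited raw counts of 98 genes, and the deposited normalized signal, in which DESeq2 size factors scale the counts of each library, were used. These factors spanned 0.577 to 1.44 (Spon. Healing) against 0.653 to 2.20 (Allograft), and the 4 genes together had 1424 to 7634 raw counts per library. The depth of the whole libraries is not known here. The authors' fold changes, test scores and p-values in the same table were not used.

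Raw counts were fitted with edgeR 4.0.16 under R 4.3.3 (robust quasi-likelihood test, no covariates, the authors' size factors, genes averaging 3 counts or more, Benjamini-Hochberg adjustment over the 97 tested genes at 0.05). Its standard errors were derived from the fold change and its F statistic. The fit was run on simulated data in which most genes did not differ. Most of the listed genes were called here, so that simulation says nothing about the number of genes called. Ratios are of raw counts, and likeness is the pooled within-group SD of the log2 ratio with 0.5 added to each count. Named genes were the 4 members, listed genes of the chaperone lists, and the 3 genes closest to each member, of which 1 is not reported here. The members and lists were chosen with earlier results of these data known. Alternatives were TMM factors, DESeq2 1.42.0, limma-voom and limma on log2 of normalized counts plus 1 (limma 3.58.1), no filter, replicate blocks and each library left out. The 3′ ends were compared with GENCODE M21 transcripts by BLAST+ 2.17.0. The methods speak of 3 biological replicates with the most RNA, whereas the labels give 4 and 5 libraries. Whether each library is a separate mouse is therefore not known here, and errors here measure the spread between these samples. Protein motif searches set at the start were not run, since no protein sequences were used here.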

Additional observations from a re-analysis of the deposited data

Results flagged for a closer look

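In the ratio of Hspa8 to Hspa5, Spon. Healing replicate 1 stood apart from the other 3 libraries of its group at 94.8 per 100, with a gap to the next library of 0.856 of the group's range, above Dixon's 95% critical value for 4 samples. Without it the log2 difference between the groups went from -0.45 to -0.27, and each library left out in turn was an alternative added for this ratio after seeing the data. In the ratio of Hsph1 to St13, Spon. Healing replicate 2 was low at 17.0 per 100, with a gap of 0.830 of the range, just past the same value. Without it the log2 difference went from 0.74 to 0.63. In all, 30 groups of values were examined in this way, and chance marks about 1 group in 20.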

How the results depend on the processing

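The fold changes of the 4 members kept their direction under all alternatives run, and moved by less than the within-group SD under each except TMM factors over the listed genes. There they were 0.14 for Hspa8, 0.83 for Hsph1, 0.19 for Dnaja1 and 0.071 for St13 on the log2 scale, and the number of listed genes called went from 96 to 44, with Hsph1 the 1 member still called. TMM assumes that most genes do not differ, and these genes were chosen for a difference. Leaving out 1 library gave 0.40 to 0.51 for Hspa8, 1.06 to 1.21 for Hsph1, 0.45 to 0.64 for Dnaja1 and 0.32 to 0.47 for St13. The log2 ratio of Hsph1 to Hspa8 stayed between 0.63 and 0.80 under all alternatives, whereas those of Dnaja1 (-0.00027 to 0.15) and St13 (-0.14 to 0.03) changed sign.

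Samples with the same replicate number did not deviate together in every pair. Correlations over 97 genes were 0.01 to 0.26 by title number and -0.38 to 0.24 by description number. The samples numbered 2 by title, and those numbered 6 by description, each correlated best with each other. Correlations over genes chosen for a group difference cannot settle whether the numbers pair the samples. With a replicate block by description number 19 genes were called, against 78 for the same libraries with no block, a comparison added after seeing the data, and with a block by title number 94. Under the block by description number the log2 fold changes were 0.40 for Hspa8, 1.20 for Hsph1, 0.45 for Dnaja1 and 0.43 for St13, and of the 4 members Hsph1 alone was still called. Under the block by title number they were 0.48, 1.16, 0.48 and 0.39 in the same order, and all 4 were called.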

Other observations

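The ER counterpart of the machine was listed with 3 of 10 genes, which were chosen on the same difference and are given as values. Hspa5 had 1923 ± 378 normalized counts for Spon. Healing (SD, n = 4) against 3573 ± 460 for Allograft (SD, n = 5). Its J-domain cochaperones Dnajc3 and Dnajb9 had log2 fold changes of 0.67 (standard error 0.16) and 0.71 (standard error 0.21). Relative to Hspa5, Dnajc3 had 29.2 ± 2.42 counts per 100 for Spon. Healing (SD, n = 4) against 24.8 ± 3.00 for Allograft (SD, n = 5). Dnajb9 had 7.62 ± 1.89 (SD, n = 4) against 6.54 ± 0.708 (SD, n = 5). Both ratios overlapped between the groups. Whether these ratios differ from that of Hsph1 to Hspa8 was not tested.

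Summed over the 4 members, normalized counts spanned 2468 to 2922 (Spon. Healing) against 3466 to 4139 (Allograft), with Allograft replicates 1 and 2 again the highest.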
